A study of Mus musculus with 6 samples.

Results

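The genes of the MyD88, TRAF and NF-kB signalling route were followed in mouse natural killer (NK) cells, as a list of 41 gene symbols running from the receptor adaptor Myd88 to NF-kB feedback and target genes. Of the 41, 35 had a probe set that the array annotation assigns to a single gene, among 19943 genes so measured, and no filter on low values was applied. Irak4, Traf3, Chuk, Nfkb1, Ripk1 and Ripk2 were not analysed here. The cells were NK1.1 positive mouse NK cells on Affymetrix arrays, in 2 groups of 3. The 3 IL-18 generated preparations came from overnight culture with 300 IU IL-2 and 25 ng/ml IL-18, and were sorted as live NK1.1 positive, CD3 negative, CD11b negative, c-kit positive cells. The 3 unstimulated preparations were sorted as live NK1.1 positive, CD3 negative, CD11b positive, c-kit negative cells. The culture recipe stands in the labels of both groups, so whether unstimulated cells were also kept in culture is unclear, and strain, age and tissue of the mice are not stated. IL-18 and the CD11b and c-kit gates, and possibly IL-2 and culture, differ between the groups together and cannot be told apart in any result below.

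IL-18 binds a receptor of the IL-1 receptor family, whose intracellular TIR domains recruit the adaptor MyD88. MyD88 gathers IRAK kinases, these engage TRAF6, and the ubiquitin chains that TRAF6 builds bring in the TAK1 kinase through the TAB proteins. TAK1 activates the IKK complex, which marks IkB proteins for destruction and so frees NF-kB dimers to enter the nucleus. NF-kB then induces cytokines and survival genes together with its own brakes, among them IkB alpha and the ubiquitin-editing enzyme A20. TNF receptor family members reach the same IKK complex through TRAF2, TRAF5 and the cIAP proteins, and in the alternative pathway the NFKB2 precursor is processed to a partner of RelB. In NK cells the route is known for IL-18 driven cytokine secretion, in particular of interferon gamma.

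All expression values below are taken as log2 values relative to the median of the probe set over the 6 arrays. They show differences and not levels. With such centring, where the groups of a gene with 1 probe set did not overlap, the innermost values of both groups are equal in size and opposite in sign. Log2 changes are IL-18 generated minus unstimulated, given ± SE with n = 3 arrays per group, and p-values are from limma with Benjamini-Hochberg adjustment over all 19943 genes. They measure only the spread between these arrays, which may be technical, since nothing says that replicates came from separate animals.

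The gates were seen in the RNA, with log2 changes of 2.79 ± 0.13 for Kit (c-kit) and -5.32 ± 0.11 for Itgam (CD11b). The rounding of the deposited numbers is that of single-precision values of at least 8 on all 6 arrays for all 8 NK cell markers, from Klrb1c to Il2rb, and for 0 of 7 B cell markers. This gives the only bound on level that the files allow. Of probe sets below 8 on all 6 arrays, at most 3.1% would meet it by chance. Where only some arrays lie below 8, as in a gene that is low in 1 group, that chance is higher. Meeting the bound is thus weaker evidence of level for genes that changed. Over all 21788 probe sets with 1 gene symbol, 34.5% met it. Of the members, 32 of 35 (91.4%) met it on at least 1 probe set, the exceptions being Tnip2, Cyld and Birc2. Cflar met it on 2 of its 3 probe sets. All 8 NK cell markers were lower in the IL-18 generated cells, with log2 changes between -2.03 (Klrb1c) and -0.40 (Il2rb). So were 8 of 8 monocyte markers, with a list mean per array of -1.64 to -1.54 in IL-18 generated cells and 1.41 to 1.99 in unstimulated cells, from Cd14 at -0.41 to Lyz2 at -7.16. Of neutrophil markers 10 of 10 were lower, with list means of -1.30 to -0.999 in IL-18 generated cells and 1.16 to 2.56 in unstimulated cells, from Retnlg at -0.62 to Ngp at -5.66. The highest of these, 2.56, belonged to unstimulated replicate 2. Of B cell markers 6 of 7 were lower, with list means of -0.32 to -0.16 in IL-18 generated cells and 0.09 to 0.51 in unstimulated cells, from Ebf1, which did not pass, at -0.06 to Cd22 at -1.18. Of T cell markers 3 of 8 were higher, all of them CD3 chains (Cd3d, Cd3e and Cd3g), and the other 5 did not pass, with log2 changes of -0.26 to -0.02. The median log2 change of the list was -0.04, with list means of 0.14 to 0.42 in IL-18 generated cells and -0.27 to -0.04 in unstimulated cells. The highest T cell mean, 0.42, was that of IL-18 replicate 3. Cd3g had a log2 change of 1.60 and Cd8a, which did not pass, one of -0.26. These shifts run through the same arrays as every result below, and their part in those results was not tested. In bulk samples fewer cells of a type and less RNA per cell cannot be told apart.

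In the IL-18 generated cells, most of the measured signalling genes were higher. Of the 35, 19 rose, 4 fell and 12 did not pass an adjusted p of 0.05. Over all genes, 36.4% passed, 19.7% higher and 16.7% lower. The share of members that passed (65.7%) and the share that rose (54.3%) lay above this background. The share that fell (11.4%) lay below it. This background holds genes of all levels, and 34.5% of its probe sets met the bound of 8, against 91.4% of members on at least 1 probe set. The part of level in these shares was not tested, and the members were chosen with earlier results of these data known. At a change of at least 2-fold, 4 members rose (Traf1, Cd83, Nfkb2 and Traf4) and 0 fell, where 3.62% of all genes rose and 3.24% fell by that much. Of the 35 genes, 0 fell by 2-fold also under each of the 14 alternative settings tried, while 4 were called lower in every one of them. The median log2 change was 0.34 over the members and -0.06 over all genes. The groups did not overlap for 24 members, 20 with the IL-18 arrays above and 4 with them below, where 48.6% of all genes did not overlap. The genes that fell were Myd88, Traf5, Ikbkb and Nfkbie.

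**Figure D1:**
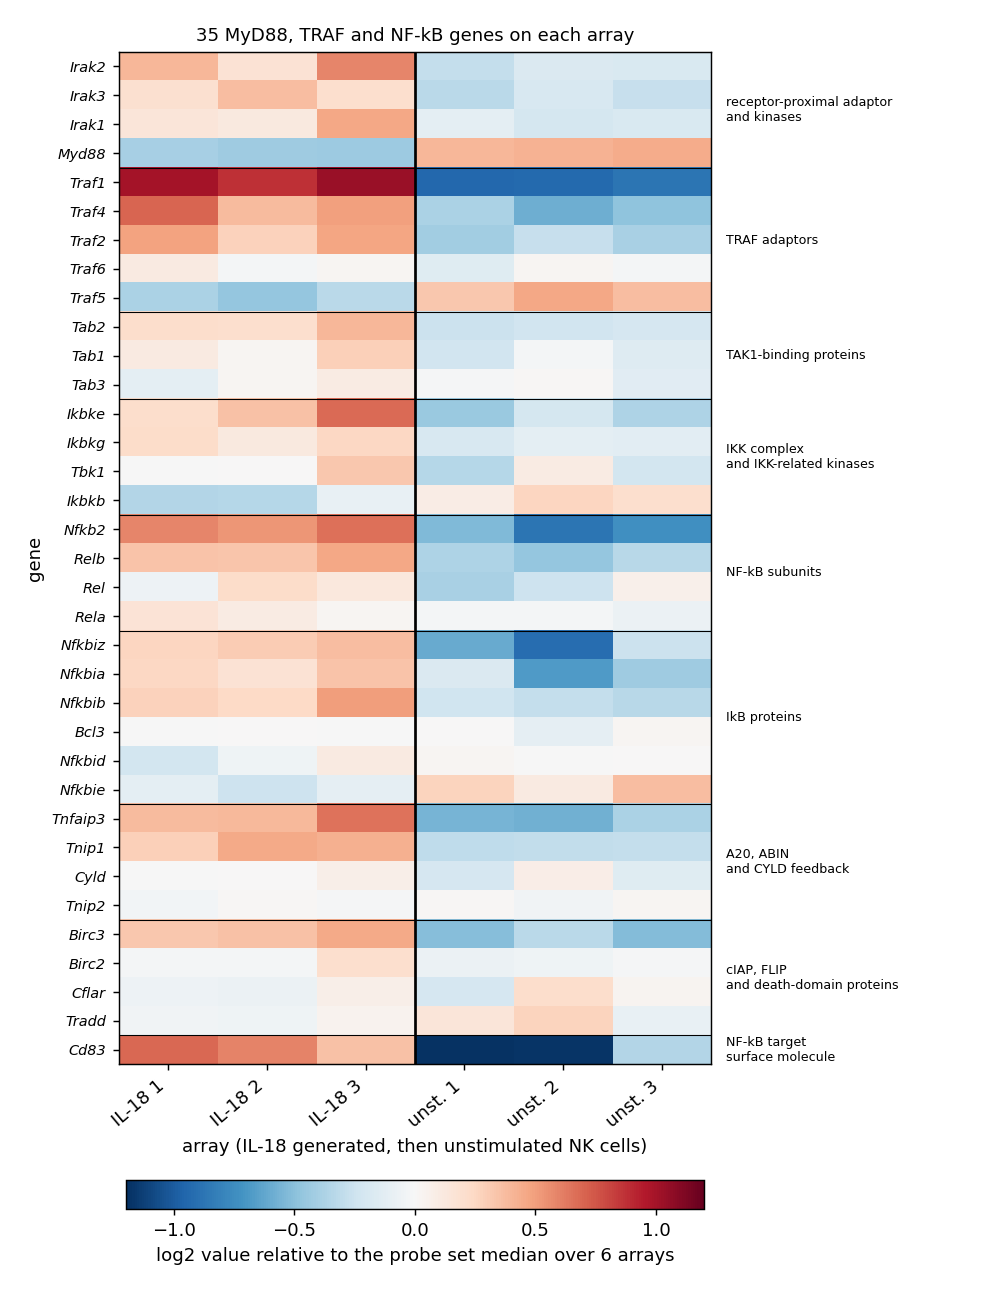
Log2 value of 35 genes (rows, grouped by role) on each of the 3 IL-18 generated and 3 unstimulated arrays (columns), relative to the probe set median over 6 arrays, with the colour scale running from blue (low) to red (high). Traf1, Nfkb2 and Cd83 show the widest contrast, and Myd88, Traf5, Ikbkb and Nfkbie run the other way.

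At the receptor, the adaptor and its kinases moved in opposite directions. Myd88, the adaptor itself, had log2 values of -0.40, -0.43 and -0.44 on the IL-18 arrays, against 0.40, 0.42 and 0.45 on the unstimulated arrays. The values within each group lay close together and the groups stood far apart, with SDs of 0.02 in both. Myd88 fell with a log2 change of -0.84 ± 0.07 (limma adjusted p 5.46e-06), the largest decrease among the members and the 851st largest among all genes. Irak1, a kinase that MyD88 recruits, had values of 0.14, 0.11 and 0.46 on the IL-18 arrays, against -0.11, -0.21 and -0.18 on the unstimulated arrays. Irak2, which sustains signalling after Irak1, had 0.40, 0.17 and 0.59, against -0.28, -0.17 and -0.18 in unstimulated cells. In both genes IL-18 replicate 3 was the highest array, and the groups did not overlap. Irak1 rose by 0.41 ± 0.10 (limma adjusted p 0.00839) and Irak2 by 0.60 ± 0.11 (limma adjusted p 0.00109).

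Irak3 encodes IRAK-M, a family member that restrains the pathway and is known mainly from monocytes and macrophages. It had values of 0.19, 0.37 and 0.20 on the IL-18 arrays, against -0.33, -0.19 and -0.28 on the unstimulated arrays. Irak3 rose by 0.52 ± 0.08 (limma adjusted p 0.000509). All 8 monocyte markers were lower in the same arrays, and the part of monocytes in the Irak3 values was not tested. All 3 measured IRAK genes therefore rose while Myd88 fell.

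The TRAF genes, which encode adaptors between receptors and kinases, spanned the widest range of any group. Of 5 measured, 3 rose, 1 fell and 1 did not pass. Traf1, which lacks the ubiquitin ligase domain of its relatives, pairs with TRAF2 and is itself an NF-kB target, had values of 0.99, 0.88 and 1.04 in IL-18 generated cells, against -0.94, -0.93 and -0.88 in unstimulated cells. Its groups were the farthest apart of any member in the plot of single arrays. Traf1 rose by 1.89 ± 0.08, or 3.70-fold (limma adjusted p 5.58e-08), the 122nd largest increase among all genes. Traf2, the adaptor that brings cIAP proteins to TNF receptors, had 0.49, 0.28 and 0.47 in IL-18 generated cells, against -0.42, -0.28 and -0.39 in unstimulated cells, and rose by 0.77 ± 0.09. Traf4, a TRAF best known from epithelial and neural development, had 0.70, 0.38 and 0.50 in IL-18 generated cells, against -0.38, -0.58 and -0.48 in unstimulated cells. Traf4 rose by 1.01 ± 0.10 (limma adjusted p 1.68e-05), or 2.01-fold, so that it stands just past the 2-fold mark, with Tnfaip3 just inside it at 0.98.

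Traf5, a close relative of Traf2 that binds many of the same TNF receptor family members, went the other way. Its values were -0.38, -0.46 and -0.33 in IL-18 generated cells, against 0.33, 0.46 and 0.37 in unstimulated cells, with no overlap. Traf5 fell with a log2 change of -0.78 ± 0.08 (limma adjusted p 2.03e-05). Traf6, the ligase that acts directly below MyD88 and the IRAKs, had 0.11, -0.02 and 0.02 in IL-18 generated cells, against -0.14, 0.02 and -0.02 in unstimulated cells. Its groups overlapped, and it did not pass, with a change of 0.08 ± 0.08 and a limma adjusted p of 0.439.

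**Figure D2:**
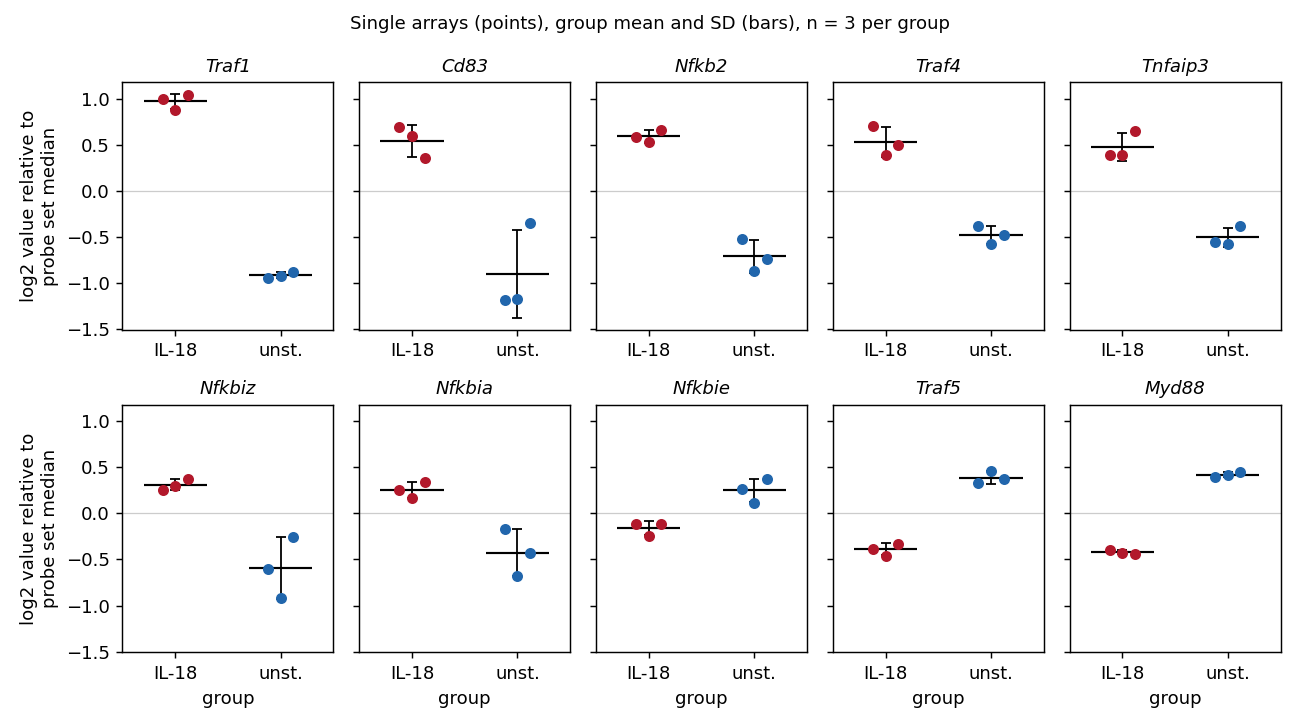
Log2 values relative to the probe set median (vertical axis) for 10 genes, with a point per array in IL-18 generated cells (left) and unstimulated cells (right) and bars for the group mean and SD (n = 3). The Traf1 groups lie farthest apart, Cd83 and Nfkbiz vary most among the unstimulated arrays, and Nfkbie, Traf5 and Myd88 are lower in IL-18 generated cells.

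Of the TAB genes, whose products tie the TAK1 kinase to ubiquitin chains or activate it, 2 rose. Tab2, a ubiquitin-binding subunit, had 0.21, 0.20 and 0.40 in IL-18 generated cells, against -0.26, -0.23 and -0.20 in unstimulated cells, and rose by 0.50 ± 0.08. Tab1, an activator of TAK1, had 0.11, 0.02 and 0.29, against -0.23, -0.02 and -0.15 in unstimulated cells. Its increase of 0.27 ± 0.09 was the weakest call among the members, with a limma adjusted p of 0.0403. The call was lost without IL-18 replicate 1 (limma adjusted p 0.0742), IL-18 replicate 3 (0.158), unstimulated replicate 1 (0.137) or unstimulated replicate 3 (0.0982), over a range of 0.0212 to 0.158 for 14 alternatives. Tab3, a relative of Tab2, did not pass and had a change of 0.05 ± 0.08.

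The IKK genes were split. Ikbkb, the catalytic beta subunit that phosphorylates IkB proteins, had values of -0.35, -0.34 and -0.09 in IL-18 generated cells, against 0.09, 0.26 and 0.21 in unstimulated cells. The groups met at 0.09 on either side of 0 without overlap, and Ikbkb fell with a change of -0.44 ± 0.09 (limma adjusted p 0.00334). Ikbkg, the scaffold subunit NEMO, had 0.22, 0.12 and 0.25 in IL-18 generated cells, against -0.19, -0.12 and -0.13 in unstimulated cells, and rose by 0.34 ± 0.07 (limma adjusted p 0.0042). The kinases related to IKK, which also act on interferon regulatory factors, were Ikbke and Tbk1. Ikbke had 0.21, 0.35 and 0.68 in IL-18 generated cells, against -0.44, -0.21 and -0.37 in unstimulated cells, and rose by 0.76 ± 0.12. Tbk1 had -0.01, 0.01 and 0.33 in IL-18 generated cells, against -0.35, 0.10 and -0.22 in unstimulated cells, so that unstimulated replicate 2 lay among the IL-18 arrays. Tbk1 did not pass, with a change of 0.26 ± 0.13 and a limma adjusted p of 0.136. It passed without unstimulated replicate 2 (0.39, limma adjusted p 0.0221), with limma adjusted p of 0.0221 to 0.418 among 14 alternatives.

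Among the NF-kB subunit genes, both measured members of the alternative pathway passed and both of the others did not. Nfkb2, which encodes the precursor of that pathway, had values of 0.58, 0.53 and 0.66 in IL-18 generated cells, against -0.53, -0.88 and -0.74 in unstimulated cells. It rose by 1.30 ± 0.10, or 2.47-fold (limma adjusted p 2.7e-06), and ranked 375th among all increases. Relb, which encodes its dimer partner, had 0.34, 0.33 and 0.46 in IL-18 generated cells, against -0.37, -0.46 and -0.33 in unstimulated cells, and rose by 0.77 ± 0.08. Both genes separated the groups without overlap.

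Rela, the main activating subunit of the classical pathway, had 0.16, 0.10 and 0.03 in IL-18 generated cells, against -0.03, -0.03 and -0.07 in unstimulated cells. The groups did not overlap, but the change of 0.14 ± 0.07 did not pass (limma adjusted p 0.174). Rel, the subunit of lymphoid and myeloid cells known as c-Rel, had -0.07, 0.22 and 0.12 in IL-18 generated cells, against -0.39, -0.25 and 0.07 in unstimulated cells. Unstimulated replicate 3 lay above IL-18 replicate 1, and the change of 0.28 ± 0.12 did not pass (limma adjusted p 0.0941). Without unstimulated replicate 3 it was 0.41 and passed (limma adjusted p 0.0151). It also passed with the replicate number as a block (adjusted p 0.0398), with limma adjusted p of 0.0151 to 0.307 among 14 alternatives. The differences in change between subunits were not tested.

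The promoters of several of these genes hold the kappa B consensus, the sequence that NF-kB dimers recognise. It was searched on both strands, from 250 bases before to 50 bases after each start site, in windows from RefSeq (GRCm38.p6). Of 33 members with a window, 10 held a match (30.3%), against 5.14% of all genes with a window. The list includes known NF-kB feedback and target genes, so its choice alone can raise this share. Members also had more windows per gene, with 46 for 33 members against 32851 for 27025 genes. The comparison thus says nothing about IL-18. The 8 members without a window, Cd83, Relb, Nfkbiz, Tab1, Ikbkb, Tradd, Nfkb1 and Ripk2, were not searched. Matches to both strands of one stretch, and overlaps, were merged. Of 15 members with a window that rose, 4 held the consensus (Nfkb2, Nfkbia, Tnfaip3 and Tnip1), as did 1 of 3 that fell (Nfkbie), 4 of 11 that did not pass (Bcl3, Cyld, Nfkbid and Rel) and Traf3, which has no expression value here. The difference between these shares was not tested. The 250 bases before the start site of 5 of them are shown to set a gene that fell beside those that rose. Among the members with a window that rose by 2-fold, only Nfkb2 held a match, and Cd83, which also rose by 2-fold, had no window. The other 4 shown were chosen after their values were seen. Capitals mark kappa B matches, and each sequence runs 5′ to 3′ along the gene.
Nfkb2, chr19:46304487-46304736, plus strand: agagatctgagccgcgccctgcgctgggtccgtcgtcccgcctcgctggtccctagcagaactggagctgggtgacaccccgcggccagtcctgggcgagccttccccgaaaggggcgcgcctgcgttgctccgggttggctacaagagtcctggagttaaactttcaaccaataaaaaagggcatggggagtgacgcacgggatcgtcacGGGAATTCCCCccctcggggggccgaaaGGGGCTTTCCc
Tnfaip3, chr10:19015411-19015660, minus strand: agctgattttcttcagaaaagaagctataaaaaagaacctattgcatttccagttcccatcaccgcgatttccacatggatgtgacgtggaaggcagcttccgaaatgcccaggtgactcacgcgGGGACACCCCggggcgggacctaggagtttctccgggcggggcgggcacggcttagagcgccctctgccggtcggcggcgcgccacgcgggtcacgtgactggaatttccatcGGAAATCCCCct
Tnip1, chr11:54962941-54963190, minus strand: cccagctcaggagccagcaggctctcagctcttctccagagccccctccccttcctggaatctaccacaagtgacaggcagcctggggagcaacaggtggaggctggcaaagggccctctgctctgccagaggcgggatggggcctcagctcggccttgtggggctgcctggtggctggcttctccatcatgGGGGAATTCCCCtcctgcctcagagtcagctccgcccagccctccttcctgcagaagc
Nfkbia, chr12:55492648-55492897, minus strand: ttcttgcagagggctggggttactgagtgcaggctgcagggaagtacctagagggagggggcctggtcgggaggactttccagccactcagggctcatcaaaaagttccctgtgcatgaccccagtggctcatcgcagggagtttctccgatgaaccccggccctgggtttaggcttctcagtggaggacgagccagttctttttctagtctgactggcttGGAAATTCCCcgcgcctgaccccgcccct
Nfkbie, chr17:45555450-45555699, plus strand: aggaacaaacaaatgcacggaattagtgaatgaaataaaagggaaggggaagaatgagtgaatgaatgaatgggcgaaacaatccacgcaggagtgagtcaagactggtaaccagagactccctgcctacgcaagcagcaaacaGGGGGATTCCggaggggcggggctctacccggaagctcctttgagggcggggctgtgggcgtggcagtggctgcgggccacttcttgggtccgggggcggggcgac

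In the Nfkb2 window shown, the matched stretches were GGGAATTCCCC, starting 39 bases before the start site, and GGGGCTTTCC, starting 11 bases before it. Tnfaip3, with 0 matches in its other window, also had 2 here, GGGACACCCC and GGAAATCCCC, starting 125 and 12 bases before the start site. Tnip1 had GGGGAATTCCCC 58 bases before it, Nfkbia GGAAATTCCC 29 bases before it, and Nfkbie, which fell, GGGGGATTCC 106 bases before it. A match describes the letters only.

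The IkB genes, whose products hold NF-kB in the cytoplasm or bind it in the nucleus, moved both ways. Of 6, 3 rose, 1 fell and 2 did not pass. Nfkbia, the rapidly induced IkB alpha, had 0.25, 0.17 and 0.35 in IL-18 generated cells, against -0.17, -0.68 and -0.43 in unstimulated cells. Nfkbib (IkB beta) had 0.28, 0.24 and 0.50, against -0.24, -0.28 and -0.33 in unstimulated cells. All IL-18 arrays lay above all unstimulated ones in both genes, and unstimulated replicate 2 was the lowest for Nfkbia. The increases were 0.68 ± 0.12 for Nfkbia (limma adjusted p 0.00112) and 0.63 ± 0.09 for Nfkbib (limma adjusted p 0.000217).

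Nfkbie encodes IkB epsilon, the remaining classical cytoplasmic inhibitor. It had -0.12, -0.25 and -0.11 in IL-18 generated cells, against 0.27, 0.11 and 0.37 in unstimulated cells, and fell with a change of -0.41 ± 0.09 (limma adjusted p 0.00397). In each of the 14 alternatives it still fell, so that the 3 cytoplasmic inhibitors did not move one way. The nuclear IkB genes differed as well. Nfkbiz, a nuclear cofactor of secondary NF-kB targets, had 0.25, 0.30 and 0.37 in IL-18 generated cells, against -0.61, -0.92 and -0.25 in unstimulated cells. The spread was wide among the unstimulated arrays, with an SD of 0.33 and an SD of 0.06 among the IL-18 arrays, and Nfkbiz rose by 0.90 ± 0.14 (limma adjusted p 0.000493). Bcl3 had a change of 0.03 ± 0.07 and Nfkbid (IkB NS) one of -0.07 ± 0.09, and neither passed. Their values stayed between -0.11 and 0.03 for Bcl3 and between -0.22 and 0.11 for Nfkbid.

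**Figure D3:**
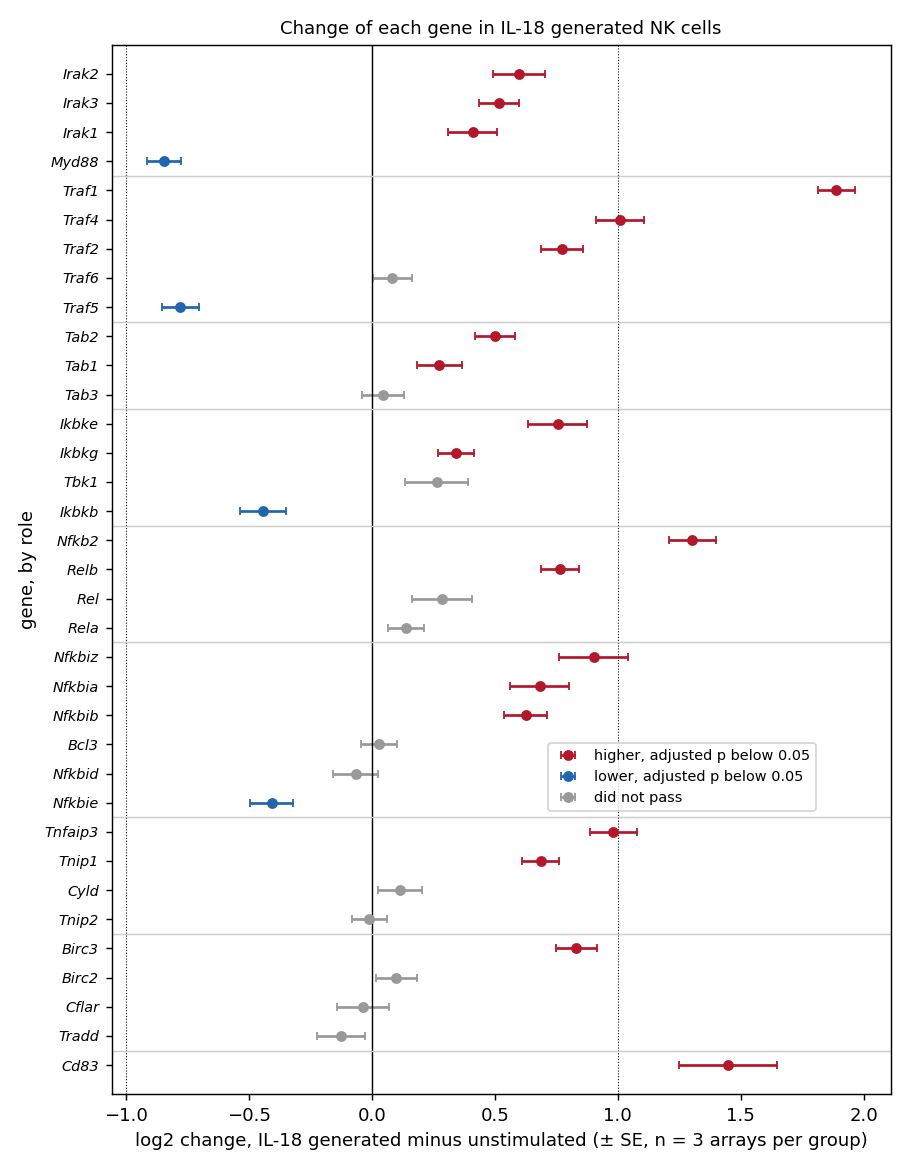
Log2 change, IL-18 generated minus unstimulated, of 35 genes in groups by role (points, ± SE, n = 3 arrays per group), with dotted lines at a 2-fold change. Red genes rose and blue genes fell at a limma adjusted p below 0.05, and grey genes did not pass. Traf1 lies farthest right at 1.89 and Myd88 farthest left at -0.84.

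Feedback enzymes and their partners followed. Tnfaip3, which encodes A20, an enzyme that edits ubiquitin chains to end NF-kB signalling, had 0.38, 0.39 and 0.65 in IL-18 generated cells, against -0.56, -0.58 and -0.38 in unstimulated cells. It rose by 0.98 ± 0.10, or 1.98-fold (limma adjusted p 1.99e-05). Tnip1, which encodes the A20 partner ABIN-1, had 0.29, 0.46 and 0.42 in IL-18 generated cells, against -0.31, -0.30 and -0.29 in unstimulated cells, and rose by 0.69 ± 0.08. The unstimulated values of Tnip1 were nearly identical. Tnip2, which encodes the related ABIN-2, had a change of -0.01 ± 0.07, and Cyld, a deubiquitinase that also restrains the pathway, one of 0.11 ± 0.09. Neither passed, with limma adjusted p of 0.926 and 0.348. Both are among the 3 members that did not reach the bound of 8 on all arrays.

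The cIAP genes, whose ubiquitin ligases act with TRAF2 and protect from death signals, came apart. Birc3 (cIAP2) had 0.33, 0.35 and 0.46 in IL-18 generated cells, against -0.51, -0.33 and -0.52 in unstimulated cells, and rose by 0.83 ± 0.08 (limma adjusted p 2.25e-05). Birc2 (cIAP1), its neighbour and close relative, had -0.02, -0.02 and 0.21 in IL-18 generated cells, against -0.07, -0.05 and -0.02 in unstimulated cells. It did not pass, with a change of 0.10 ± 0.08 as the mean of 2 probe sets, and these gave 0.28 ± 0.12 and -0.08 ± 0.09 apart. As paralogs can share probes, the separate values carry that uncertainty. Cflar, which encodes the caspase-8 inhibitor c-FLIP, had a change of -0.04 ± 0.11, and its 3 probe sets gave -0.06, 0.01 and -0.06. Tradd, the death domain adaptor of TNF receptor 1, had a change of -0.12 ± 0.10. Neither gene passed, and in both the groups overlapped.

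Cd83, a surface molecule of activated lymphocytes and dendritic cells and a known NF-kB target, had 0.69, 0.59 and 0.35 in IL-18 generated cells, against -1.19, -1.18 and -0.35 in unstimulated cells. Unstimulated replicate 3 lay far above the other unstimulated arrays, and the SD of that group, 0.48, was the widest of any member. Cd83 rose by 1.45 ± 0.20, or 2.73-fold (limma adjusted p 0.000198), and by 1.73 without unstimulated replicate 3.

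IL-18 replicate 3 was the highest of the IL-18 arrays for 24 of 35 members, and its mean over the members was 0.26, against 0.16 and 0.14 in IL-18 replicates 1 and 2. The same array was the highest for the CD3 chain genes Cd3d (1.01), Cd3e (1.29) and Cd3g (1.30), while the other 5 T cell markers lay between -0.18 and 0.01 on it. The part of those markers was not tested. Without IL-18 replicate 3, 18 members rose and 4 fell. Means over the members of -0.23, -0.20 and -0.17 in unstimulated replicates 1 to 3 lay closer together.

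Further components of the route, 42 genes listed beside the members with earlier results of these data known, did not lean one way. Of these, 11 rose, 10 fell and 21 did not pass, where 19.7% and 16.7% of all genes did so, and the median log2 change was -0.07. Zc3h12a (regnase-1, which degrades cytokine mRNAs) rose by 1.76 ± 0.08, Nkrf, an NF-kB repressing factor, by 1.52 ± 0.08 and Otulin, which removes linear ubiquitin chains, by 1.40 ± 0.08. The largest decreases were Malt1, the protease of the CARD-BCL10 complex, with -1.17 ± 0.13, Tifa, a TRAF6-binding adaptor, with -1.11 ± 0.09 and Ticam2, a Toll-like receptor adaptor, with -0.89 ± 0.14. Of the 9 adaptors, pellinos and TIR regulators, 4 fell and 0 rose at this threshold, and 5 did not pass. The highest limma adjusted p among the 6 genes named was 0.000462, that of Ticam2, and Nkrf, Tifa and Ticam2 did not reach the bound of 8 on all arrays.

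Receptors upstream of the route were mostly lower. Of 18 measured, 12 fell, 1 rose and 5 failed to pass, where 16.7% of all genes fell and 19.7% rose. This list, too, was chosen with earlier results of these data known. The median log2 change was -0.61. Il18r1, a chain of the IL-18 receptor chosen here after its values were seen, had -1.32, -1.09 and -0.79 in IL-18 generated cells, against 0.79, 1.22 and 0.89 in unstimulated cells. Il1rl2, the IL-36 receptor, rose by 1.19 ± 0.22, on a probe set that did not reach the bound of 8 on all arrays. The largest decreases were the endosomal Toll-like receptor genes Tlr13 with -3.82 ± 0.22, Tlr7 with -2.95 ± 0.20 and Tlr8 with -2.47 ± 0.16, of which Tlr7 did not reach that bound. Toll-like receptors are expressed by monocytes, whose markers were lower in the same arrays by a median of -2.73, and the part of those cells was not tested.

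Known NF-kB target genes outside the members moved in both directions. Of 32 measured, 15 rose, 7 fell and 10 did not pass, where 19.7% of all genes rose and 16.7% fell. By at least 2-fold, 14 of the 15 rose and 3 of the 7 fell, where 3.62% of all genes rose and 3.24% fell. The list median was 0.23, and the list was chosen with earlier results of these data known. Il2ra rose by 5.32 ± 0.11, Csf2 by 4.51 ± 0.17 and Tnf by 3.04 ± 0.18, all on probe sets that did not reach the bound of 8 on all arrays. The largest decreases were Ccl4 with -1.84 ± 0.19, Il1b with -1.76 ± 0.17 and Ccl5 with -1.15 ± 0.12, of which only Ccl5 reached that bound. Of the 32 target genes, 14 reached it. Split by function, 6 cytokine and chemokine genes rose and 4 fell, 5 receptor and adhesion genes rose and 0 fell, and 4 survival and stress genes rose and 0 fell. Of the 6 transcription factors and other targets, 0 rose and 3 fell.

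**Figure D4:**
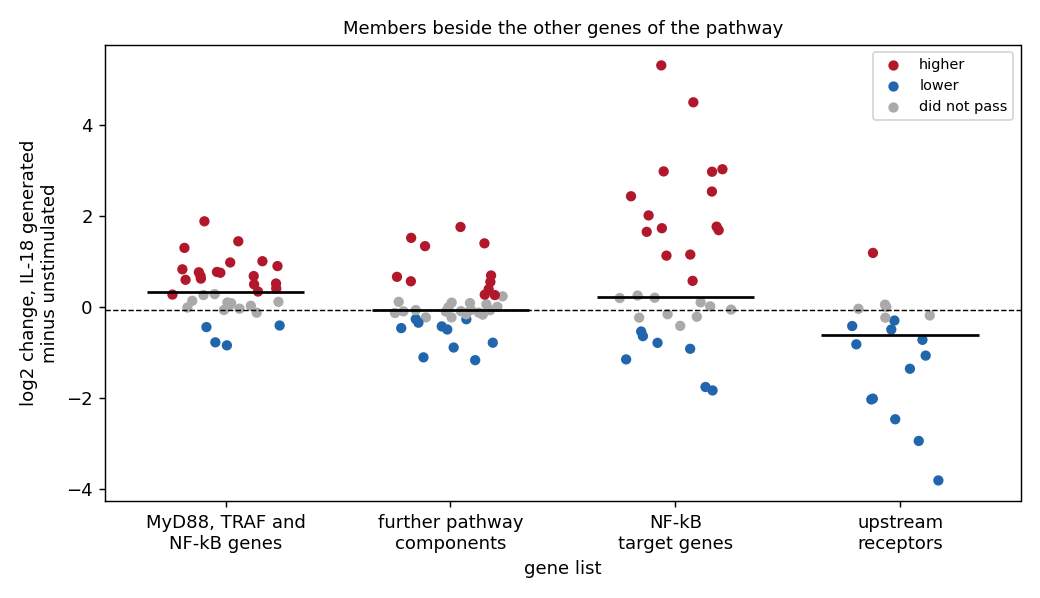
Log2 change, IL-18 generated minus unstimulated (vertical axis), of each gene in 4 lists (points), with a solid bar at the list median and a dashed line at the median of all genes, -0.06. Red genes rose, blue genes fell and grey genes did not pass a limma adjusted p of 0.05. The members lie between -0.84 and 1.89, while target genes reach 5.32 and upstream receptors -3.82.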

How the data were processed

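Total RNA of 6 sorted NK cell preparations was labelled with biotin and hybridised to Affymetrix arrays, per the labels' protocols. The deposited values, taken as log2, cover 28815 probe sets, each centred by the authors on its median over the 6 arrays (largest departure 5e-07). The sources used here name no summarisation or normalisation method. The log base was read from the values. A range of 7.77 within 1 probe set exceeds what log10 could give, and 44 of 239 probe sets wider than natural logs would allow (3.09) lay on the rounding grid of numbers of 8 or more (tolerance 0.15 of a step).

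Probe sets with 1 gene symbol in the platform annotation (21788, with 1597 of several symbols and 5430 not listed left out) were averaged by gene. Array medians were -0.02 to 0.04, and the values were used without renormalizing. Groups were compared by limma 3.58.1 in R 4.3.3 (lmFit, eBayes, no covariate). Arrays hold no counts, and their number limits the precision. The fit was tested on simulated data with known changes. Of simulated log2 changes of 0.5, 49.3% were recovered, against 97% at 1 and 100% at 2. In the simulation 170 genes were called, against 7267 in the data, so these shares need not carry over to the members. Alternatives were eBayes options, quantile normalization, array centring, array weights, probe set choices, the replicate block and leaving out each array. All measured members were named. In other lists, up to 3 of the largest increases and decreases that passed were named, with the extremes of marker lists. Members and lists were chosen with earlier results of these data known.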

Additional observations from a re-analysis of the deposited data

How the results depend on the processing

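Counts of members, of other pathway components and of target genes stayed within 1.5 times under all 14 alternatives, with 18 to 20 members higher and 4 lower, and 3 to 6 higher by at least 2-fold. Of 488 values of single members under an alternative, 473 kept direction and side of the threshold. Changes of sign occurred in 5 members, all near 0 and past the threshold in no setting. Tnip2 was 0.0213 with quantile normalization and 0.0221 with array median centring. Leaving out each array in turn gave -0.0290 to 0.0016 for Tnip2, -0.147 to 0.0176 for Nfkbid, -0.0014 to 0.104 for Tab3, -0.0128 to 0.0545 for Bcl3, -0.143 to 0.0619 for Cflar and, among markers, -0.14 to 0.005 for Ebf1. The cause was not tested. The calls of Tab1, Tbk1 and Rel moved as given beside them, and Cd8a passed with array weights and without unstimulated replicate 2.

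Same-numbered arrays had correlated deviations of 0.24, 0.01 and -0.02, so the numbers were not taken to pair the samples, and not every array correlated best with its own number. With the replicate block, 20 members were higher and 4 lower, Rel (adjusted p 0.0398) being the addition, and no other member's call changed. With 3 arrays per group and values relative to the median, small changes and expression levels are limited.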
